A study of Mus musculus with 9 samples.

Results

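The simple keratins Krt7, Krt8, Krt18 and Krt19 and the other intermediate filament genes Vim, Nes, Des and Synm were described in mouse embryonic fibroblasts (MEFs), cells grown out of mouse embryos and kept in culture. These 8 genes were found by name among the 29915 genes of the deposited count table. They had been picked because Krt18 and Krt19 differed in opposite directions between a wild-type (WT) and a mutator line, so the values of the 8 genes in that contrast are given as a description, with no p-value. RNA was sequenced from 4 wells of the WT line and 5 wells of the mutator line, untreated and harvested 48 h after seeding. Each genotype was represented by 1 cell line, and the wells are technical replicates of it. Any p-value therefore sets the difference between these lines against the spread between wells alone. Effects of genotype and of anything else by which these 2 lines differ cannot be told apart. The labels name the second genotype only as mutator, and do not give embryonic age, strain or the altered gene, so no check of a targeted gene was made.

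The libraries held 26341230 to 36238653 counts in WT and 32045662 to 49511365 in mutator. The labelled cell type was compared with 14 fibroblast markers, of which 10 were tested. Col1a1 and Col1a2, the chains of type I collagen, had means of 793 and 205 CPM in WT and 2685 and 2586 CPM in mutator (CPM, the edgeR unit of a count scaled to library size), and Fn1, fibronectin, had 5581 and 7484 CPM. S100a4 had 559 CPM in WT and 559.8 in mutator, Pdgfrb 71.3 and 109, Prrx1 46.2 and 74.9, Twist1 29.1 and 25.2, Col3a1 16.4 and 166, Pdgfra 7.30 and 5.20, and Postn 0.251 and 1.23 CPM. The other 4 markers were close to 0. Thy1 had 0 counts over the WT libraries and 20 over the mutator libraries, Dcn had 9 and 5, Lum had 1 and 0, and Fap had 17 and 36. In bulk RNA, fewer cells of a type and less RNA per cell cannot be told apart, which holds for every level given here.

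Intermediate filaments are the rope-like part of the cytoskeleton. Keratins build them only in pairs, in which a type I chain such as Krt18 or Krt19 joins a type II chain such as Krt7 or Krt8, and Krt8 with Krt18 is the pair of simple epithelia. Vimentin, encoded by Vim, forms filaments on its own and is the main intermediate filament protein of fibroblasts and other mesenchymal cells. Desmin (Des) does so in muscle, while nestin (Nes), known from neural and muscle progenitors, and synemin (Synm) are large proteins that join filaments built by vimentin or desmin.

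Krt7, Krt8 and Krt18 lie close together on chromosome 15, and Krt19 lies with other type I keratins on chromosome 11. In the mouse genome build GRCm38, Krt7 spans chr15:101412403-101427806, Krt8 chr15:101996711-102004342, Krt18 chr15:102028216-102032026 and Krt19 chr11:100140810-100145926. The others lie apart, Vim at chr2:13574311-13582826, Nes at chr3:87971093-87980451, Des at chr1:75360292-75368579 and Synm at chr7:67730161-67759742. The promoter windows of Krt18, of its neighbours Krt8 and Krt7, and of Vim are shown. They set these keratins of chromosome 15 beside the most abundant filament gene. They come from RefSeq (GRCm38.p6), run 5′ to 3′ on the strand of the gene from 250 bases before its start to 50 after it, and capitals mark every match to a motif that was searched. Windows were given for 7 of the 8 genes, all but Krt19. The windows are chr15:102027966-102028265 (plus strand) for Krt18, chr15:102004293-102004592 (minus strand) for Krt8, chr15:101412153-101412452 (plus strand) for Krt7 and chr2:13574061-13574360 (plus strand) for Vim.
Krt18: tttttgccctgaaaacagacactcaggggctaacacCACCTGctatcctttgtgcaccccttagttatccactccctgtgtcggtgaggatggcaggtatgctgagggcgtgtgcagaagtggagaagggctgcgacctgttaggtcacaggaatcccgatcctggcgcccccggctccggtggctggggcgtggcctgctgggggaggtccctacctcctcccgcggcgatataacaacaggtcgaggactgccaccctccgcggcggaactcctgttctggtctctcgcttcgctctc
Krt8: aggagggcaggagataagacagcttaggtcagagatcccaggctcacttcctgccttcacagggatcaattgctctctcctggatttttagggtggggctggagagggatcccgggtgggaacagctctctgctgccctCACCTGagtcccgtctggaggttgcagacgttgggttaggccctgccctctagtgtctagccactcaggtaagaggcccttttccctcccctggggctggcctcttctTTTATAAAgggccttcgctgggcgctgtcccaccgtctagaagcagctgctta
Krt7: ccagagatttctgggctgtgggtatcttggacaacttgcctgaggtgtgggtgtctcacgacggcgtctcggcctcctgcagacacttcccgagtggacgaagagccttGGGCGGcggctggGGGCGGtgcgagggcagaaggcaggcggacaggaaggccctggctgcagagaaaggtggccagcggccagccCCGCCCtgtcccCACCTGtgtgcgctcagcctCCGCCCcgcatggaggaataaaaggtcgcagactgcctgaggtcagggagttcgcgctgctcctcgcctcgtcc
Vim: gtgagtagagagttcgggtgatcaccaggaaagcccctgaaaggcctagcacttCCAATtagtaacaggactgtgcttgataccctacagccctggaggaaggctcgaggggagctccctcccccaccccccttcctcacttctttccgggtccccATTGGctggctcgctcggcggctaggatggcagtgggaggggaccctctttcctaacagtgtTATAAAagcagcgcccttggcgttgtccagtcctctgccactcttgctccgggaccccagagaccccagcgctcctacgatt

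The motifs searched on both strands were TATAAA (the TATA box), GGGCGG (the GC box bound by Sp1), TGANTCA (AP-1), CCAAT (a further promoter box), CATTCC (TEAD) and CAGGTG (the E-box bound by Snail and Zeb proteins). Among 32851 RefSeq windows of the same length, 13.6% held the first, 35.7% the second, 7.81% the third, 37.4% the fourth, 14.7% the fifth and 20.2% the last. The Krt18, Krt8 and Krt7 windows each held the letters of the E-box, which the Vim, Nes, Des and Synm windows did not. The Krt7 window also held 4 matches to the GC box. The Krt8 window held TATAAA from base -1 and, overlapping it, its reverse complement from base -3, both across the annotated start. The Vim window held 1 TATAAA, from base -32, and 2 CCAAT matches. The windows of Nes and Des held 2 GC boxes each, and that of Synm held 1 CCAAT. None of the 7 windows held the letters of the AP-1 or TEAD motif. A match is a description of the sequence and was not shown to be a bound site. The Krt18 and Krt7 windows were 61.3% and 66.3% G and C with 17 and 21 CpG dinucleotides, against medians of 52.7% and 7 over all windows, and the Krt8 window had 58.0% and 6.

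Of the type I keratins, Krt18 was the abundant one in WT and Krt19 the abundant one in mutator. Krt18 had 98.3, 107, 105 and 104 CPM in the 4 WT libraries and 1.38, 1.27, 1.59, 1.00 and 1.24 CPM in the 5 mutator libraries, from 2766 to 3543 and from 40 to 65 counts. Every mutator library was far below every WT library. The means were 104 ± 3.81 CPM (SD, n = 4) in WT and 1.30 ± 0.214 CPM (SD, n = 5) in mutator, a log2 fold change of mutator over WT of -6.33 ± 0.06 (SE), or 80.3-fold lower. Only 44 of the 13345 genes tested had a lower log2 fold change than Krt18.

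Krt19, a type I keratin of simple and ductal epithelia, lay the other way. It had 29.8, 28.3, 29.6 and 29.4 CPM in the WT libraries and 160.0, 174, 174, 177 and 165 CPM in the mutator libraries. The groups did not overlap. The means were 29.3 ± 0.651 CPM (SD, n = 4) in WT and 170.1 ± 7.30 CPM (SD, n = 5) in mutator, a log2 fold change of 2.54 ± 0.04 (SE), or 5.81-fold higher. By level among the tested genes, Krt19 ranked 6388 from the top in WT and 1285 in mutator, and Krt18 ranked 2494 and 11391. Within each library, Krt18 had 3.55 ± 0.197 counts (SD, n = 4) for each Krt19 count in WT, and in mutator Krt19 had 135 ± 26.3 counts (SD, n = 5) for each Krt18 count. These ratios need no scaling between libraries.

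**Figure D1:**
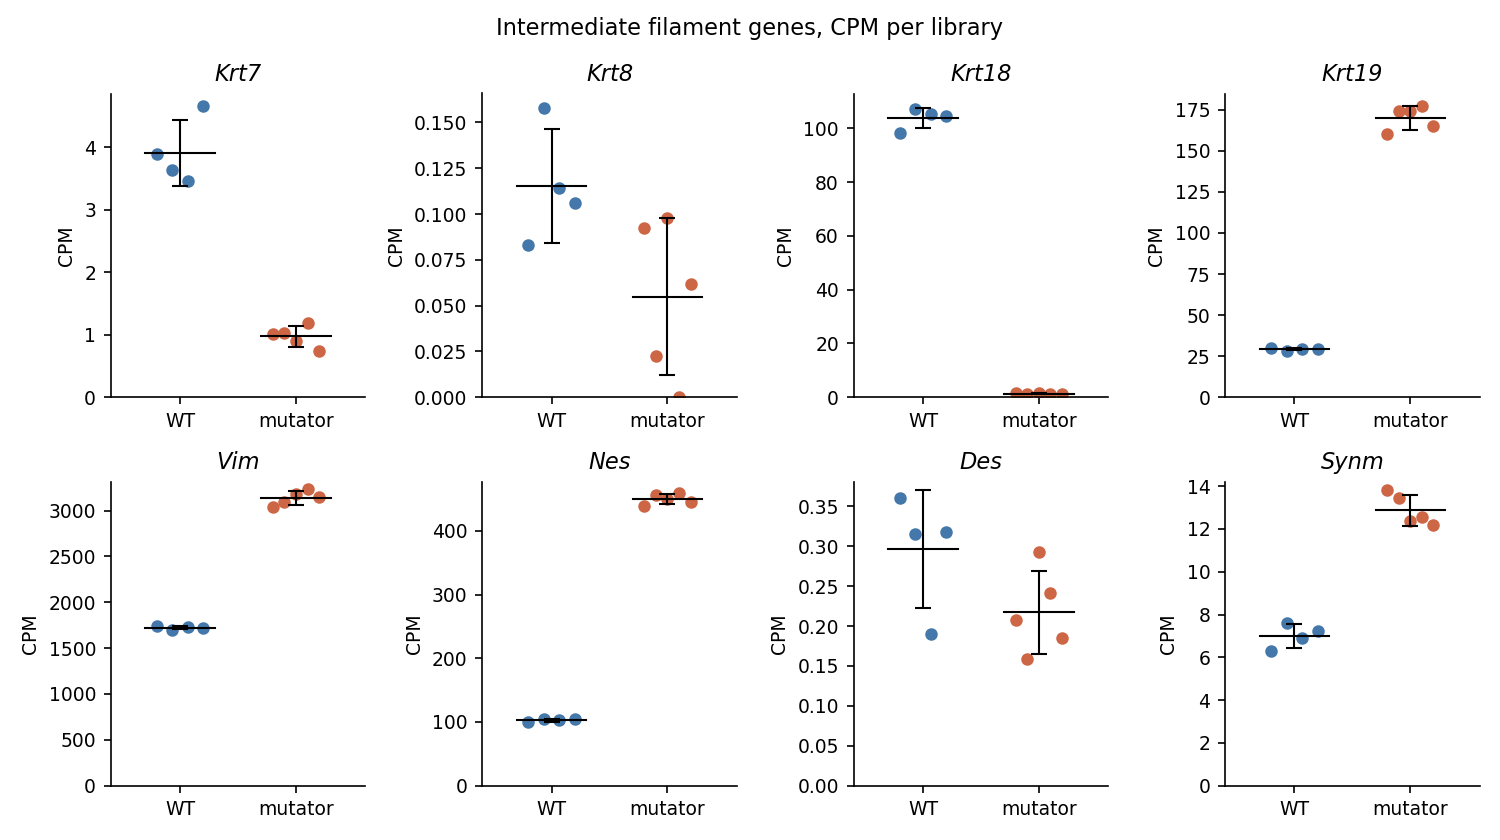
CPM of the 8 intermediate filament genes in each library, with a linear axis from 0 for each gene; points are wells, lines and bars are the mean and SD of 4 WT and 5 mutator libraries. Krt18 lies at 98.3 CPM or more in WT and at 1.59 CPM or less in mutator, Krt19 at 29.8 CPM or less in WT and at 160.0 CPM or more in mutator, and only Krt8 and Des overlap between the lines.

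The type II partners were scarce in both lines. Krt7, the partner of Krt19 in ductal epithelia, had 3.89, 3.63, 3.46 and 4.66 CPM in WT and 1.02, 1.02, 0.904, 1.18 and 0.741 CPM in mutator. The groups did not overlap, and Krt7 lay lower in mutator as Krt18 did. Its means were 3.91 ± 0.532 CPM (SD, n = 4) and 0.973 ± 0.164 CPM (SD, n = 5), a log2 fold change of -1.98 ± 0.13 (SE), or 3.94-fold lower.

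Krt8, the usual partner of Krt18, was near 0. It had 3, 5, 3 and 3 counts in the WT libraries and 4, 1, 4, 0 and 2 in the mutator libraries, and it did not pass the filter on low counts. The ratio of its summed counts, WT over mutator and scaled to depth, was 2.19, with an exact 95% interval of 0.924 to 5.33 that accounts for counting error alone, as the reads carried no molecular identifiers and cannot be taken as separate molecules. Against Krt18 in the same library, Krt8 counts were 0.0847 to 0.147% of it in the WT libraries and 0 to 6.67% of it in the mutator libraries. Of the distinct 50-base stretches of Krt8 transcripts in GENCODE M21, 29.7% also occur in transcripts of another gene (Krt8-ps and Gm36026), against 0.720% for Krt18 and 0% for Krt19, Vim and Nes. The count table has no row of either name, no source used here says how reads with several positions were counted, and their part in the Krt8 count was not tested.

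Type II RNA was thus outnumbered by type I RNA among the simple keratins in every library. Krt7 and Krt8 together came to 3.03 ± 0.403% (SD, n = 4) of the sum of Krt18 and Krt19 in WT libraries and to 0.600 ± 0.0808% (SD, n = 5) in mutator, and the groups did not overlap. Krt80, a type II keratin of differentiating epithelia, was chosen for a further sum after its values were seen, as the most abundant type II keratin in these libraries. It had 19.9 to 21.9 CPM in WT and 26.9 to 33.2 CPM in mutator, a log2 fold change of 0.56 ± 0.06 (SE) with an adjusted p of 3.82e-08 (edgeR quasi-likelihood test, Benjamini-Hochberg over all genes). With Krt80 counted in, type II counts came to 18.7 ± 0.924% (SD, n = 4) of that sum in WT and 18.5 ± 0.762% (SD, n = 5) in mutator, and the groups overlapped. Per kilobase of exon the same share was 4.40 ± 0.216% and 5.36 ± 0.216%, and there they did not overlap. That share depends on exon lengths with all annotated isoforms joined. These are 6393 bases for Krt80 and 7049 for Krt7, against 1437 for Krt18 and 1855 for Krt19, which lowers the type II share.

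The 4 simple keratins summed to overlapping levels per length in both lines, with another makeup in each. Krt18 held 75.7 ± 1.06% (SD, n = 4) of their summed counts in WT, against 0.754 ± 0.132% (SD, n = 5) in mutator, and Krt19 held 21.4 ± 0.914% and 98.7 ± 0.144%. Their summed level per kilobase of exon ranged from 85.1 to 90.4 CPM per kilobase in WT and from 87.4 to 96.5 in mutator, and the ranges overlapped. Their summed CPM, without the correction for length, ranged from 132 to 139 in WT and from 162 to 180 in mutator and did not overlap. The exons of Krt19 are longer than those of Krt18, 1855 against 1437 bases.

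**Figure D2:**
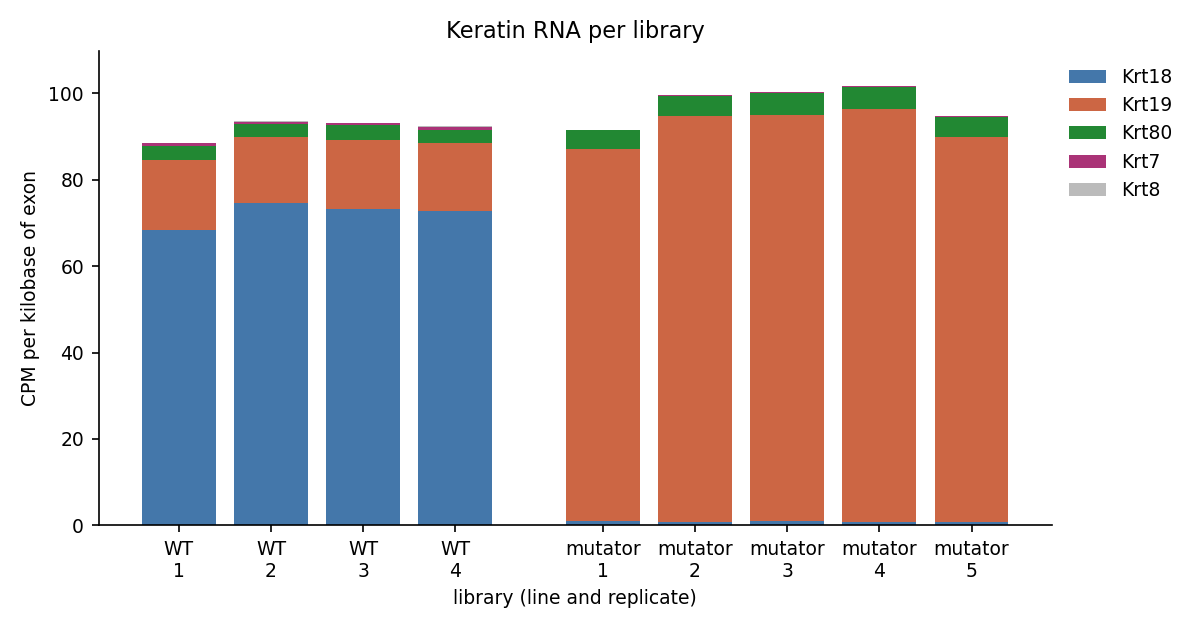
Stacked CPM per kilobase of exon of Krt18, Krt19, Krt80, Krt7 and Krt8 in each library (y axis from 0), by line and replicate. Krt18 fills most of each WT bar and Krt19 nearly all of each mutator bar, while the 4 simple keratins sum to 85.1 to 90.4 in WT and 87.4 to 96.5 in mutator.

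Few other keratins were measurable. Of the 48 other keratin genes found in the table, 5 were tested, 43 were not, and 20 had no count in any library. No untested keratin passed 0.247 CPM in any library. Among the other type I keratins, Krt13, known from the lining of mouth and oesophagus, rose, with 0.994 ± 0.179 CPM (SD, n = 4) in WT and 3.59 ± 0.204 CPM (SD, n = 5) in mutator, higher by 1.86 ± 0.12 on the log2 scale (SE; edgeR adjusted p = 7.67e-11). Krt10, of upper epidermis, did not pass, with 1.76 CPM in WT and 1.82 CPM in mutator. Krt16, of stressed epidermis, had a log2 fold change of -0.40 ± 0.19 (SE; edgeR adjusted p = 0.0791), which passed without WT replicate 2 (-0.49, adjusted p = 0.0480) and relative to chromosome medians (-0.46, adjusted p = 0.0422). Among the other type II keratins, Krt75, of the hair follicle, had no count in the WT libraries and 14, 18, 22, 21 and 13 counts in the mutator libraries. Against a floor of 3 counts over the WT group, it was at least 17.0-fold higher in mutator.

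Vim was the most abundant of the 8 genes in both lines. It had 1742, 1696, 1735 and 1723 CPM in WT and 3037, 3089, 3181, 3235 and 3145 CPM in mutator, and the groups did not overlap. The means were 1724 ± 20.3 CPM (SD, n = 4) and 3137 ± 77.1 CPM (SD, n = 5), a log2 fold change of 0.86 ± 0.02 (SE), or 1.82-fold higher. Its rank among all tested genes was 27 in WT and 6 in mutator.

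Nes was higher in mutator by more than Vim. It had 99.6, 105, 103 and 104 CPM in WT and 439.6, 457, 450.4, 459 and 445 CPM in mutator, and the groups did not overlap. The means were 103 ± 2.32 CPM (SD, n = 4) and 450.2 ± 8.14 CPM (SD, n = 5), a log2 fold change of 2.13 ± 0.02 (SE), or 4.37-fold higher. Nes counts came to 5.97 ± 0.193% of Vim counts in WT (SD, n = 4) and to 14.4 ± 0.281% in mutator (SD, n = 5).

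Synm was higher in mutator by about as much as Vim. It had 6.27, 7.61, 6.93 and 7.21 CPM in WT and 13.8, 13.5, 12.4, 12.5 and 12.2 CPM in mutator, without overlap. Its means were 7.005 ± 0.563 CPM (SD, n = 4) and 12.9 ± 0.717 CPM (SD, n = 5), a log2 fold change of 0.88 ± 0.06 (SE), or 1.85-fold higher. Synm counts were 0.360 to 0.449% of Vim counts in WT and 0.388 to 0.455% in mutator, ranges that overlap. In GENCODE M21, exons of Synm share 84 bases with Ttc23 and 426 with Gm45102 on the opposite strand. The libraries were strand-specific, per the labels' protocols, but no source used here gives the strand setting of the counting, so reads from there cannot be told apart.

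Des was near the limit of detection in both lines. It had 13, 10, 5 and 9 counts in the WT libraries and 9, 7, 12, 12 and 6 in the mutator libraries. The groups overlapped at 0.190 to 0.361 CPM in WT and 0.159 to 0.293 CPM in mutator, and the log2 fold change was -0.46 ± 0.28 (SE).

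Of the 7 genes of this set that were tested, 6 were past an adjusted p of 0.05 (edgeR), with Krt19, Nes, Synm and Vim higher and Krt18 and Krt7 lower in mutator. Of all 13345 genes tested, 79.9% were past it, 40.7% higher and 39.2% lower, and nothing is read from the count since the genes were picked from this contrast. The groups did not overlap for the same 6 genes and for 71.9% of all genes tested. A change of at least 2-fold was seen for 4 of the set and for 17.8% of all genes, and one of at least 4-fold for 3 of the set, Krt18, Krt19 and Nes, and for 8.07% of all genes. The median absolute log2 fold change was 1.98 for the 7 genes and 0.35 for all genes tested, where the median log2 fold change was 0.01.

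Per kilobase of exon, the order of levels differed between the lines in the place of the keratins. In WT, Vim stood at 363 CPM per kilobase, then Krt18 at 72.2, Nes at 16.0 and Krt19 at 15.8, and the ranges of Nes and Krt19 overlapped. Synm at 0.883, Krt7 at 0.555, Des at 0.0789 and Krt8 at 0.0589 followed, and Des and Krt8 overlapped. In mutator, Vim stood at 661 CPM per kilobase, then Krt19 at 91.7, Nes at 70.2, Synm at 1.62, Krt18 at 0.902 and Krt7 at 0.138. Des at 0.0579 and Krt8 at 0.0280 came last and again overlapped. The exon length is that of all annotated isoforms joined, 7049 bases for Krt7 against 1437 for Krt18, which lowers the value of Krt7.

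The spread between wells was small for Krt18 and Krt19 beside the difference between the lines. In WT the SD of log2 CPM was 0.0536 for Krt18, and 0.0189 without WT replicate 1. In mutator, where its counts were 40 to 65, it was 0.233, above those of 98.5% of the 200 tested genes nearest to it in mean level over all libraries, with a median of 0.0835. Against the 200 genes nearest in level within the mutator line, a comparison chosen after seeing the data, 67.0% lay below it and the median was 0.198. Krt19 had an SD of 0.0323 in WT, and 0.0108 without WT replicate 2. In mutator its SD was 0.0625, above those of 78.5% of the 200 genes nearest in mean level over all libraries (median 0.0412), and of 90.0% of those nearest within that line (median 0.0375). Krt19 was lowest in mutator replicate 1, at 160.0 CPM, and highest in mutator replicate 4, at 177 CPM, and Vim was lowest and highest in the same 2 libraries.

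The genes nearest to Krt18 were not lower in mutator to a like extent. The nearest tested genes after it were Eif4b, a translation initiation factor (41.7 kb away, log2 fold change -0.25 ± 0.02 SE, edgeR adjusted p = 4.24e-09), Tenc1, which encodes the focal adhesion protein tensin 2 (66.4 kb, 0.70 ± 0.04 SE) and Spryd3 (84.5 kb, 0.39 ± 0.03 SE). The nearest tested genes before it were Krt75 at 454 kb, Krt7 at 600 kb and Krt80 at 658 kb, given above, of which Krt7 was lower and the others higher in mutator. Krt8 lies between, 23.9 kb from Krt18, with too few counts to be tested. Of the 30 other tested genes within 1 Mb of Krt18, 10 had a log2 fold change below 0 and 20 above 0, with a median of 0.24, against 0.06 for the 500 tested genes of chromosome 15. Itgb7, an integrin chain, and Igfbp6, an IGF-binding protein, were chosen from that window after their values were seen. Itgb7 rose from 0.766 to 53.3 CPM and Igfbp6 from 0.0401 to 4.63 CPM, the latter from 5 counts over the WT libraries.

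Around Krt19, Krt13 at 19.2 kb was higher in mutator as Krt19 was, and none of the other 5 nearest tested genes passed the threshold as higher. Krtap1-5, a hair keratin-associated protein gene 560 kb away, fell by 1.64 ± 0.16 on the log2 scale (SE; edgeR adjusted p = 2.59e-08), and Krt10, 743 kb away, did not pass. On the other side, Krt16 at 100 kb did not pass, Eif1, a factor of start codon choice at 174 kb, fell by 0.08 ± 0.02 (SE; edgeR adjusted p = 0.00281), and Hap1, the huntingtin-associated protein gene at 201 kb, had -0.08 and did not pass (edgeR adjusted p = 0.128). Of the 33 other tested genes within 1 Mb of Krt19, 11 lay below 0 and 22 above 0, with a median of 0.23, against 0.06 for the 1047 tested genes of chromosome 11.

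**Figure D3:**
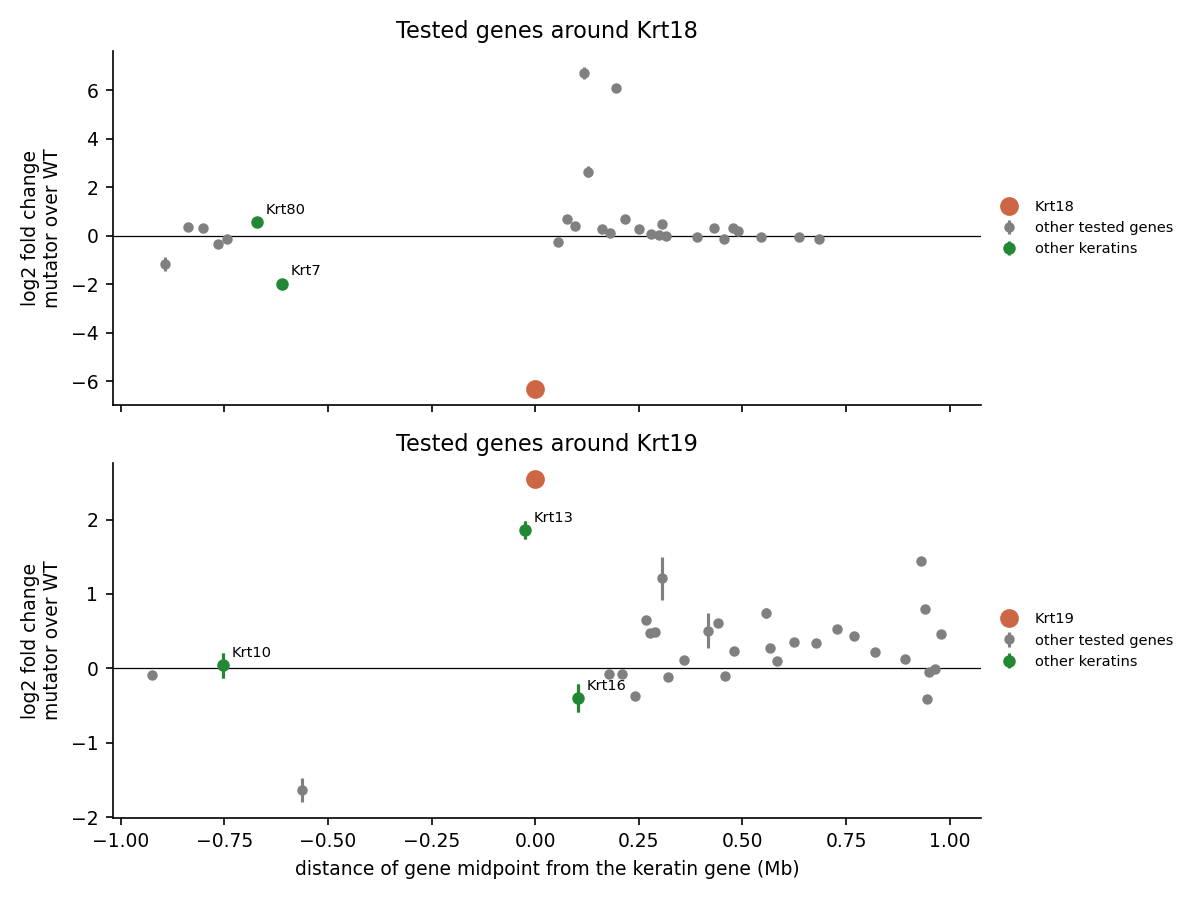
Log2 fold change of mutator over WT, with SE, of the tested genes with more than 3 counts in each line within 1 Mb of Krt18 (top) and Krt19 (bottom), by distance in Mb from the keratin gene. Krt18 at -6.33 lies below every other gene in its window, and Krt19 at 2.54 above every other gene in its own.

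Nes stood against its neighbourhood. The 3 nearest tested genes on each side of it were all lower in mutator, from -1.22 for Crabp2, a retinoic acid-binding protein, to -0.53 for Iqgap3, a scaffold of Ras-family signalling. Of the 36 other tested genes within 1 Mb of Nes, 32 lay below 0, with a median of -0.70, and the 604 tested genes of chromosome 3 had a median of -0.73. Set against the median of its chromosome, the log2 fold change of Nes was 2.86 in place of 2.13. Vim lies on chromosome 2, where 985 tested genes had a median of 0.31, and against that median its log2 fold change was 0.55 in place of 0.86.

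Over the 8468 genes that averaged 10 CPM or more, likeness to Krt18 or Krt19 was measured as the root mean square difference of log2 CPM over the 9 libraries after each gene's own mean was taken off. Nearest to Krt18 were Flrt3, a cell adhesion protein (0.207; 48.7 CPM in WT and 0.563 in mutator), Perp, a membrane protein of desmosomes (0.366; 120.2 and 2.42 CPM), and Syt8, a synaptotagmin (0.442; 36.1 and 0.620 CPM). Nearest to Krt19 were H2-T23, a class Ib MHC gene (0.0565; 7.14 CPM in WT and 42.6 in mutator), Ngef (0.0609; 3.12 and 18.0 CPM), and Ahr, the aryl hydrocarbon receptor (0.0619; 17.5 and 104 CPM). The 9 libraries are wells of 2 lines, so likeness is for the most part a like difference between those lines.

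The genes that surround the filaments were taken from 8 lists, of which 84 of 153 genes found were tested and 75 were past an adjusted p of 0.05 (edgeR), 40 higher and 35 lower in mutator. With 10 CPM asked for in 4 libraries, 23 were lower, where 3878 of the 9255 genes tested were lower. The 75 of 84 genes without that demand are read against the 79.9% of all genes tested that were past an adjusted p of 0.05. Of the other intermediate filament genes, 12 were found, 5 tested, 2 higher, 1 lower and 2 not past it, with a median log2 fold change of 0.05 against 0.01 over all genes. Prph, the peripherin of peripheral neurons, rose 6.46-fold, with 0.293 ± 0.0223 CPM (SD, n = 4) in WT and 1.93 ± 0.261 CPM (SD, n = 5) in mutator (edgeR adjusted p = 2.79e-10). Sync, a partner of desmin, rose from 8.34 to 10.8 CPM (edgeR adjusted p = 4.93e-05). Of the nuclear lamins, Lmnb1 fell from 177 to 156 CPM (edgeR adjusted p = 3.31e-07), and Lmna and Lmnb2 did not pass, with log2 fold changes of -0.05 and 0.05. Relative to chromosome medians, Lmna had 0.69 and Lmnb2 0.27, and both passed (edgeR adjusted p = 1.14e-08 and 5.27e-05); Lmna also passed without mutator replicate 4, at -0.10 (edgeR adjusted p = 0.0398).

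Plakins and other linkers tie filaments to junctions and to the rest of the cytoskeleton. Of 14 found, 12 were tested, with 8 higher and 4 lower in mutator and a median of 0.68 against 0.01 over all genes. Dsp, desmoplakin, which anchors keratins and desmin at desmosomes, rose 4.57-fold, with 2.17 ± 0.358 CPM (SD, n = 4) in WT and 10.05 ± 0.563 CPM (SD, n = 5) in mutator (edgeR adjusted p = 1.21e-13). Ppl, periplakin, rose 2.98-fold from 8.10 to 24.1 CPM (edgeR adjusted p = 2.97e-15). Plec, plectin, which binds vimentin and keratins, rose from 339 to 617 CPM, and the small heat shock proteins Hspb1 and Cryab, chaperones of filaments, rose 2.65-fold and 2.12-fold. Eppk1, epiplakin, a keratin-binding protein, fell by 1.39 ± 0.11 on the log2 scale (SE). The call for Evpl, envoplakin, at 22 counts over the WT libraries, was lost in several settings, without WT replicate 4 among them (edgeR adjusted p = 0.185).

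The desmosome and hemidesmosome list split evenly. Of 17 found, 13 were tested, 6 higher, 6 lower and 1 not past the threshold, with a median of 0.05. Perp had a mean of 120.2 ± 3.04 CPM (SD, n = 4) in WT and 2.42 ± 0.177 CPM (SD, n = 5) in mutator, and fell 49.8-fold (edgeR adjusted p = 2.38e-23). Of the plakophilins, plaque proteins of desmosomes, 3 were lower, Pkp1 by 3.75-fold from 96.4 to 25.7 CPM and Pkp3 by 2.92-fold from 5.29 to 1.80 CPM, with Pkp2 from 51.8 to 33.6 CPM. Pkp4 had 99.1 CPM in WT and 102.6 in mutator and did not pass (log2 fold change 0.05, edgeR adjusted p = 0.0671). It passed as higher with upper quartile scaling (0.10, edgeR adjusted p = 0.00199) and as lower relative to chromosome medians (-0.26, edgeR adjusted p = 2.73e-08). Jup, plakoglobin, fell by 0.37 on the log2 scale. Dsc2, a desmosomal cadherin, had 2 counts over the WT libraries and 1647 over the mutator libraries, a ratio scaled to depth of 478 (exact 95% interval 132 to 3952, counting error only). Also higher was Dsg2, with 8 counts over the WT libraries and 108 over the mutator libraries. The rest of the higher genes were Col17a1 (log2 fold change 1.07), Itga6 (0.45), Cd151 (0.44) and Dsp, given above. Itgb4, the integrin of hemidesmosomes, fell by 0.43 on the log2 scale with an edgeR adjusted p of 0.0351, which was lost in several settings, without WT replicate 3 among them (edgeR adjusted p = 0.133).

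**Figure D4:**
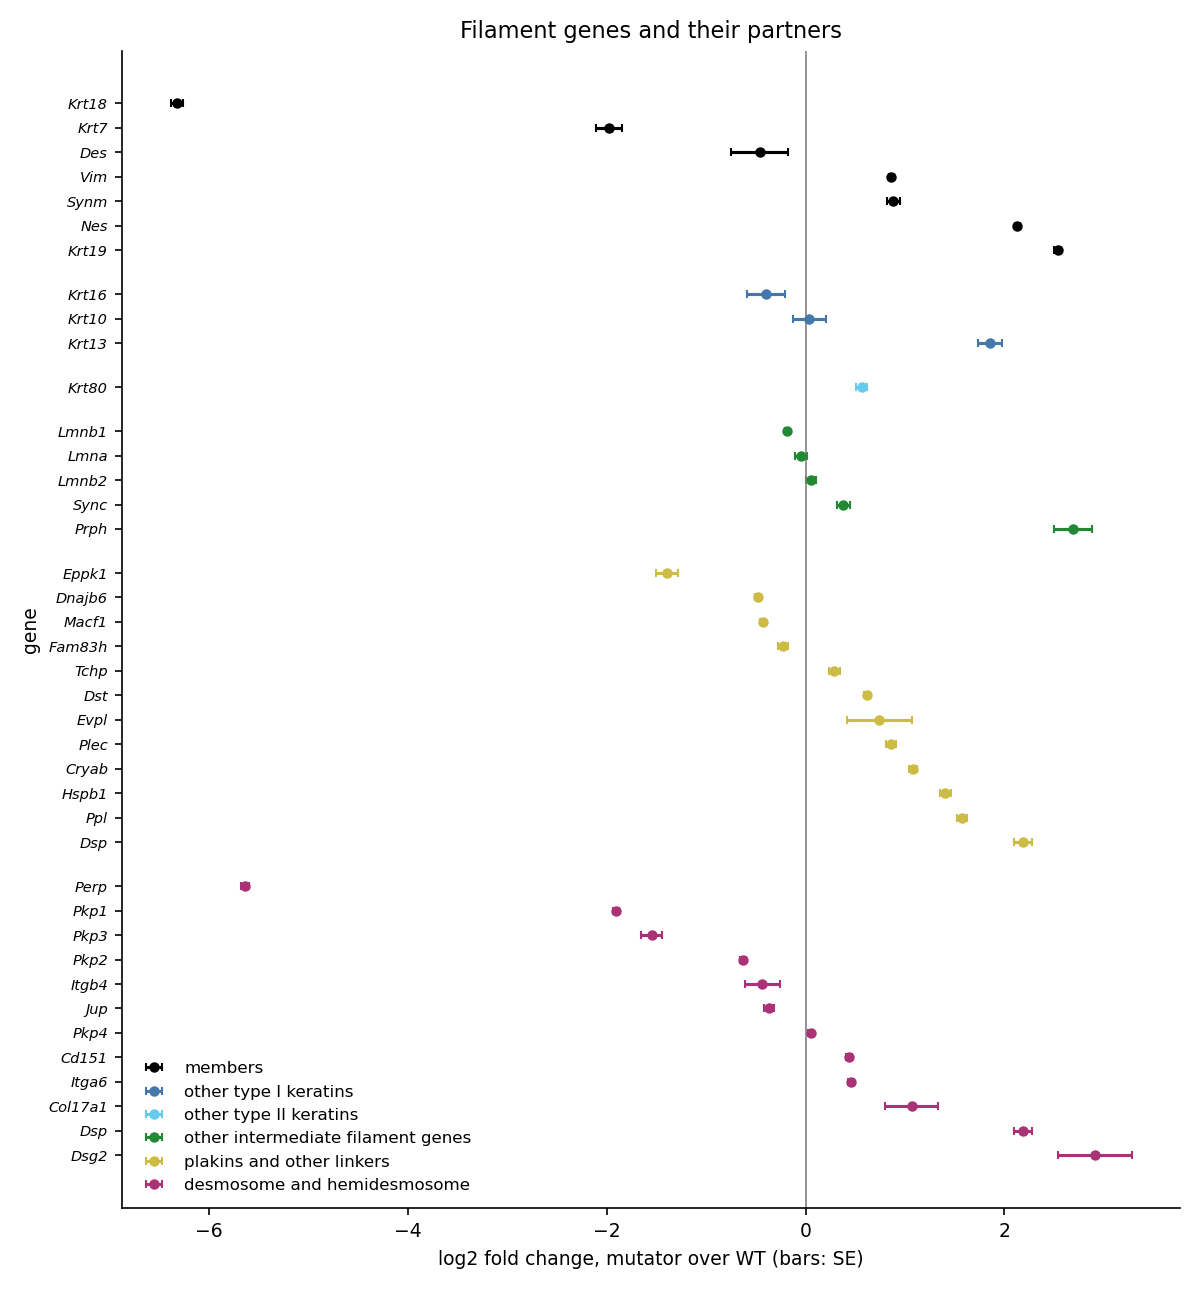
Log2 fold change of mutator over WT, with SE, of the 7 tested genes of the set (black) and of the tested genes of 5 lists of other keratins, other intermediate filament genes, linkers and desmosome genes. Krt18 at -6.33 and Perp at -5.64 lie farthest to the left; Krt75 and Dsc2, with 0 and 2 counts in WT, are left out.

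Kinases and turnover factors that act on filaments differed by less. All 17 were tested, 8 were higher and 9 lower, with a median of -0.09, and none changed by 2-fold. Those that differed most were Prkce, a protein kinase C that phosphorylates vimentin (-0.92 ± 0.04 SE), Mapk14, the p38 kinase (-0.57), and Ube2n, a ubiquitin-conjugating enzyme (-0.50), all past the threshold in edgeR. Trim32, a ubiquitin ligase for desmin, had -0.26, which relative to chromosome medians turned to 0.10.

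Of 30 factors listed for keratin and vimentin transcription, 22 were tested, 9 were higher, 10 lower and 3 not past the threshold, with a median of 0.00. Tcfap2a, the AP-2 alpha factor of epidermis and neural crest, fell, with 14.6 ± 0.737 CPM (SD, n = 4) in WT and 0.0918 ± 0.0395 CPM (SD, n = 5) in mutator (edgeR adjusted p = 9.57e-19). Trp63, the p63 factor of stratified epithelia, fell 7.63-fold from 3.49 to 0.444 CPM. Also lower, among others, were Sox2 (log2 fold change -2.04), Fosb (-1.35), Gata3 (-1.03) and Ets1 (-0.32). Among the higher were Klf4 (0.99), Junb (0.92), Jund (0.89), Fosl1 (0.72), Fos (0.63), Mkl1 (0.60) and Ets2 (0.40). The part of these factors in the keratin levels was not tested. Sp3 had 0.12, which relative to chromosome medians turned to -0.19.

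Of 16 factors of the epithelial to mesenchymal transition, 11 were tested, with 5 higher, 5 lower and 1 not past the threshold, and a median of 0.05. Zeb2, a repressor of epithelial genes, rose 4.49-fold, with 13.3 ± 1.28 CPM (SD, n = 4) in WT and 59.6 ± 0.587 CPM (SD, n = 5) in mutator (edgeR adjusted p = 9.38e-18). Snai2, a factor of the same kind, rose from 24.3 to 43.6 CPM, and Foxc2 from 15.2 to 30.5 CPM. Snai1 and Prrx1 were also higher. The 5 lower were Grhl1 (log2 fold change -1.39), Esrp2 (-0.39), Twist2 (-0.28), Twist1 (-0.21) and Tcf4 (-0.09). The calls of Esrp2 and Tcf4 were lost in some settings. Zeb1 had 74.8 CPM in WT and 77.2 in mutator and did not pass (edgeR adjusted p = 0.131). It passed with upper quartile scaling at 0.09 (edgeR adjusted p = 0.00627), with a stricter filter at 0.07 (edgeR adjusted p = 0.0202) and, in the other direction, relative to chromosome medians at -0.07 (edgeR adjusted p = 0.0321).

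Markers of other cell types that carry keratins or filaments were measured beside these values, and their part in the differences was not tested. Of 26 epithelial markers, 9 were tested, 2 were higher, 5 lower and 2 not past the threshold, and 12 had at most 5 counts in every library. Their summed level was 47.8 to 50.2 CPM in WT and 45.9 to 47.4 CPM in mutator. The median log2 fold change of the tested markers was -0.52, against 0.01 over all genes. Cdh1, E-cadherin, had 1.73 ± 0.0463 CPM (SD, n = 4) in WT and 0.158 ± 0.0742 CPM (SD, n = 5) in mutator and fell 10.8-fold (edgeR adjusted p = 5.31e-11), and Epcam had 0.196 and 0.0647 CPM and was not tested. The protease inhibitors Spint2 and Spint1 went opposite ways, Spint2 from 14.1 to 2.09 CPM and Spint1 from 1.27 to 8.59 CPM. Cdh3, P-cadherin, the highest of the list and the largest part of its sum in both lines, rose from 24.9 to 32.6 CPM.

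Mesothelium and trophoblast also use Krt7, Krt8, Krt18 and Krt19. Of 14 mesothelial markers, 5 were tested, 2 were higher, 2 lower and 1 not past the threshold. Their summed level was 584 to 593 CPM in WT and 523 to 533 CPM in mutator, led by Cpe, a carboxypeptidase found in many tissues, and Msln, mesothelin. Msln fell from 244 to 131 CPM and C3, a complement component, from 17.0 to 5.92 CPM, while Cpe rose from 328 to 389 CPM. Aldh1a2, the other higher marker, had no count over the WT libraries and 317 counts over the mutator libraries. Against a floor of 3 counts over the WT group, it was at least 61.4-fold higher in mutator. Of 15 trophoblast markers, 4 were tested, 1 was higher and 3 lower, and the summed level was 50.1 to 54.2 CPM in WT and 22.8 to 26.3 CPM in mutator. Tead4, the most abundant of them and a factor of many tissues, fell from 46.1 to 19.8 CPM. Prl2c2 rose from 1.56 to 3.32 CPM (edgeR adjusted p = 0.000117), and Gata3 fell from 3.26 to 1.57 CPM. Eomes, also lower, had 49 counts over the WT libraries and 2 over the mutator libraries. Cdx2, Elf5, Hand1, Tpbpa and Gcm1 had no count in any library.

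Of 17 muscle markers, 6 were tested, 2 were higher, 3 lower and 1 not past the threshold, with a summed level of 72.2 to 83.7 CPM in WT and 111 to 135 CPM in mutator, most of it Smtn, smoothelin (70.3 and 116 CPM). Myod1, Myf5 and Ckm had no count. Pax3, a factor of muscle and neural crest progenitors, had 1 count over the WT libraries and 702 over the mutator libraries. Those lower in mutator were Acta1, skeletal actin, which fell 12.5-fold from 2.45 to 0.196 CPM, Cnn1, calponin of smooth muscle, which fell from 3.67 to 1.36 CPM, and Tnnt2, cardiac troponin T, which fell from 1.74 to 0.685 CPM. Of 15 neural and glial markers, 4 were tested, 2 were higher and 2 lower, with 63.8 to 65.5 CPM in WT and 21.6 to 24.0 CPM in mutator, while Nes was higher in mutator. Mtap2, the neuronal microtubule protein MAP2, fell from 44.4 to 12.6 CPM, Sox2, a factor of neural progenitors, from 17.3 to 4.21 CPM, and Tubb3, a neuronal tubulin, rose from 2.18 to 5.05 CPM. Of 9 endothelial markers, 3 were tested, 2 were higher and 1 was not past the threshold, with 10.3 to 10.9 CPM in WT and 14.6 to 15.1 CPM in mutator. Egfl7 rose from 9.33 to 13.9 CPM and Erg from 0.296 to 0.522 CPM, though for Erg the groups overlapped. Kdr, at 0.472 and 0.369 CPM, did not pass. Tek, which was not tested, lay the other way, with 44 counts over the WT libraries and 5 over the mutator libraries. Of the 14 fibroblast markers, 7 of the 10 tested were higher, 2 lower and 1 not past the threshold, and their sum was 7144 to 7567 CPM in WT and 13303 to 14179 CPM in mutator. Col3a1, a collagen chain, rose 10.2-fold and Col1a2 12.6-fold.

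**Figure D5:**
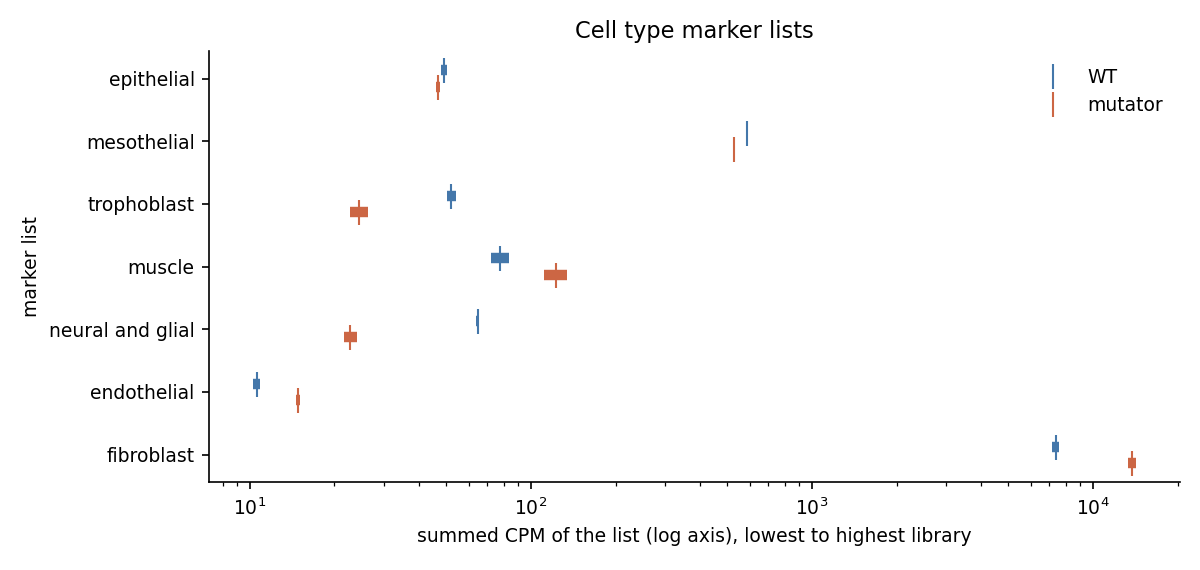
Range of the summed CPM (log axis) of each of the 7 cell type marker lists over the 4 WT and 5 mutator libraries; bars run from the lowest to the highest library. Fibroblast markers lie at 7144 CPM or more in WT and 13303 CPM or more in mutator, with Fn1 alone at means of 5581 and 7484 CPM. Epithelial markers lie at 47.8 to 50.2 CPM in WT and 45.9 to 47.4 CPM in mutator, where 2 of 9 tested markers rose and 5 fell. The lists hold unlike genes, so their sums do not compare the shares of cell types.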

How the data were processed

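The deposited values were raw counts per gene, which the authors made with STAR 2.4.2a and HTSeq on mm10, per the submitters' processing notes; libraries were poly(A)-selected and strand-specific, read as 150 bp pairs, per the labels' protocols. No source used here gives the annotation, the strand setting or the counting of reads with several positions. Each sample's description named its column, and 5 further columns, matching none, were left out. In 16 replicate pairs, chi-square per degree of freedom was 2.49 to 12.4, so each library counted as 1 sample.

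The test was the quasi-likelihood F test of edgeR 4.0.16 (R 4.3.3) on genes kept by filterByExpr, with TMM scaling and no term but the line. Benjamini-Hochberg adjustment ran over 13345 genes, and the threshold was an adjusted p of 0.05. SE is the size of the log2 fold change over the square root of F. CPM uses TMM-scaled library sizes, and log2 CPM a prior count of 2. The members and lists were chosen with earlier results of these data known. Of 269 list entries, 264 were found, 9 by an older symbol. Named in each list were the 3 largest called changes of genes averaging 1 CPM or more and, for markers, the 3 highest levels; others were named after their values were seen. A gene that this rule named is not reported here. Exon lengths come from GENCODE M21 and positions from RefSeq (GRCm38.p6), matched for 21737 rows, 2348 of them by an older symbol. Alternatives were upper quartile scaling, no filter, a filter of 10 CPM in 4 libraries, chromosome medians taken off, a replicate block, DESeq2 1.42.0, and each library left out.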

Additional observations from a re-analysis of the deposited data

Results flagged for a closer look

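Of 130 sets of 4 or 5 replicate values examined, 6 had 1 library apart from the others of its line by Dixon's criterion, which chance alone meets in about 1 in 20. None was the CPM of 1 of the 8 intermediate filament genes. Krt19 counts were 1.67% of Vim counts in WT replicate 2 and 1.70 to 1.71% in the other WT libraries. Cdh3 was 26.1 CPM in WT replicate 2 and 24.4 to 24.5 in the others, and Tcfap2a was 13.5 CPM there and 14.8 to 15.1 in the others. Pax3 was 0.0278 CPM in WT replicate 1, from 1 count, and 0 in the others. Sync was 9.60 CPM in mutator replicate 1 and 11.1 to 11.3 in the others. Ube2n was 19.97 CPM in mutator replicate 4 and 23.1 to 24.1 in the others.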

How the results depend on the processing

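Krt18 and Krt19 kept their directions in the 15 alternatives run. With 1 library left out, the log2 fold change ranged from -6.41 to -6.23 for Krt18 and from 2.52 to 2.56 for Krt19, and 71 to 75 genes of the 8 lists around the filaments were past the threshold, against 75 with all libraries. Relative to chromosome medians Krt19 had 2.48 in place of 2.54. With at least 10 CPM asked for in 4 libraries, 23 list genes were lower in mutator in place of 35, from 9255 genes tested, and Krt7, Krt8 and Des were not tested. Of the 75 list genes, 11 lost their call or turned direction in at least 1 alternative, Trim32 and Sp3 by turning. Over all genes, 10687 passed with upper quartile scaling, 11596 without a filter, 10394 relative to chromosome medians and 10409 with DESeq2, against 10665. The replicate numbers did not pair the wells: same-numbered WT and mutator libraries correlated at -0.08 to 0.03, and 0 of 4 WT libraries correlated best with its own number. With a replicate block, 10481 genes passed, with 74 list genes past the threshold, and Krt18 had -6.32 and Krt19 2.55. Depth limits Krt8 and Des, at 13 counts or fewer in every library: Krt8 was not tested, and the log2 fold change of Des had an SE of 0.28.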
